A study of Homo sapiens with 9 samples.

Results

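The sorafenib-resistant clone Huh7-R-A7 was compared with the parental Huh7 cells, Huh7-S, over all annotated genes. The arrays were chosen by their titles, 3 of the clone and 3 of the parental cells, which is 6 of the 9 arrays of the study. The remaining 3 arrays hold the uncloned resistant pool, Huh7-R, from which the clone was taken, and they entered the fit to estimate the spread. Huh7 is a cell line from a human hepatocellular carcinoma. According to the labels, resistant cells were selected by pulses of 10 µM sorafenib for 4 h once a week over 6 weeks and were then grown in increasing sorafenib of up to 6 µM, in 0.1% DMSO. The drug was withdrawn 5 to 7 days before the experiments, so no group was under sorafenib when RNA was taken. The clone grew from a single colony of the pool, and its arrays were identified by their titles, since the description fields of arrays 2 and 3 of this group name clones other than A7. If those fields are right, the 3 arrays are of different clones, and n = 3, the SEs and each value given for the clone describe a mixture of clones. Selection, cloning and the time in culture between clone and parental cells cannot be told apart in this design. As nothing in the labels says that the 3 arrays of a group came from independent selections, the p-values measure only the spread between these arrays.

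Sorafenib blocks RAF kinases and several receptor tyrosine kinases, among them receptors for vascular endothelial and platelet-derived growth factors, and it has been a first treatment for advanced liver cancer. Tumours that respond at first usually grow again, and cell lines kept in rising drug are a common model of that change. Hepatocytes and the tumours derived from them secrete most plasma proteins, store glycogen and carry out much of the body's amino acid, lipid and drug metabolism. Of 16 kinases listed as targets of sorafenib 1 was measured under a single gene symbol, the RAF family kinase ARAF, with a log2 difference of -0.08 (adjusted p = 0.29).

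Expression is given as the deposited log2 signal, in which a difference of 1 is a 2-fold change. Each difference is the clone mean minus the parental mean with the standard error (SE) of the fit, n = 3 per group, and adjusted p is the Benjamini-Hochberg value of limma's moderated test over 9784 genes. Genes rose or fell where the adjusted p was below 0.05. A signal below log2 6 was taken as noise, and where a group mean lay under that limit the fold is a bound, with arrays below 6 set to 6. In 6604 of the 11013 probe sets at least 2 of the 9 arrays held exactly the same value, so some SEs may be too small. Medians per array lay between 8.22 and 8.38. Huh7-S array 1 stood apart from its group: 163 genes were more than 1 log2 unit higher on it than the mean of Huh7-S arrays 2 and 3, and 239 were lower. Over all genes, 4.11% lay farther than 1 from the group mates on this array, against 0.0409% to 1.06% on the other 8 arrays. Where leaving it out moved the change of a described gene by over 1.5 times, the value without it is given too.

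The labelled cell type was checked against hepatocyte markers, of which 14 of 18 were measured. Albumin, ALB, the main plasma protein of the liver, had log2 signals of 17.28, 16.54 and 16.44 on Huh7-S arrays 1 to 3 and of 14.66, 15.73 and 15.82 on the clone arrays. The groups did not overlap, as was so for 52.4% of all genes, and both remained far above noise. Clone array 1 was the lowest for ALB, and clone arrays 2 and 3 lay nearer to the parental values. Over the 14 markers the mean level was 11.7 on Huh7-S array 1 and 10.54 and 10.42 on Huh7-S arrays 2 and 3. On clone arrays 1 to 3 it was 9.75, 10.47 and 10.52. Clone arrays 2 and 3 thus lay at the level of Huh7-S arrays 2 and 3. Of the markers 7 fell and 0 rose, with a median of -0.69, or 6 and 2 with a median of -0.39 without Huh7-S array 1. The apolipoprotein gene APOB had 17.56, 16.65 and 16.61 in the parental cells and 12.35, 14.31 and 14.41 in the clone. Its change was -3.25 (SE 0.55, adjusted p = 0.0021), with clone array 1 far below the other clone arrays. APOA1, of high density lipoprotein, was near noise in the parental cells, with 6.11, 6.39 and 6.04, and below it in the clone, with 4.29, 4.49 and 4.53, so its fall was at least 1.13-fold (adjusted p = 1.2e-05).

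In the clone 1763 genes rose, 18% of the genes tested, and 2411 fell, 24.6%. Rises of at least 2-fold were seen in 502 genes (5.13%) and falls of that size in 557 (5.69%), and changes of at least 8-fold in 66 and 44 genes. The median change over all genes was -0.04 and the median size of a change was 0.26. The 3 clone values and the 3 parental values did not overlap in 52.4% of genes. Without Huh7-S array 1, 1979 genes rose (20.2%) and 2481 fell (25.4%). Of these, 1648 rises and 2159 falls were called in both fits, and no gene was called with opposite signs. Of the 2-fold changes, 498 of 502 rises and 553 of 557 falls were called again without that array. Centring each array on its median moved the share of rises among all calls from 42.2% to 52.8%.

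The 20 largest rises and the 20 largest falls were taken among called genes whose groups did not overlap. Separate groups thus add no support for these genes. Among the 20 largest rises were genes of matrix and secreted proteins, surface receptors and enzymes, many of them near or below the noise limit in the parental cells. OLR1, a scavenger receptor for oxidised low density lipoprotein, had log2 signals of 7.09, 7.65 and 7.64 on the parental arrays and of 16.51, 15.95 and 15.84 on the clone arrays. FBN2, a fibrillin of elastic microfibrils, had 4.39, 4.48 and 4.61 in the parental cells and 12.89, 12.67 and 12.67 in the clone. In both, all clone arrays lay more than 8 log2 units above the parental ones. AGR2, a protein disulfide isomerase of mucus-secreting cells, rose from 4.25, 4.52 and 4.21 to 8.76, 10.02 and 9.94. The log2 difference of AGR2 was 5.24 (SE 0.3, adjusted p = 1.2e-05), at least 11.9-fold. Clone array 1 was the lowest of the 3 for this gene.

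KYNU, which cleaves kynurenine on the path from tryptophan to NAD, had 5.33, 5.29 and 4.97 in the parental cells and 10.24, 10.50 and 10.57 in the clone. That is a log2 difference of 5.24 (SE 0.14, adjusted p = 3.3e-07), at least 21.6-fold. MAP1B, a protein that stabilises microtubules and is best known from neurons, rose from 6.6, 6.05 and 6.41 to 11.42, 11.1 and 11.1, by 4.85 (SE 0.15, adjusted p = 6.8e-07). Leaving out Huh7-S array 1 moved the changes of KYNU and MAP1B by little, to 5.31 and 4.98. The protease inhibitor gene SLPI had 5.45, 4.86 and 4.76 in the parental cells, 9.31, 9.34 and 9.54 in the clone and 12.06, 13.52 and 13.33 in the pool. Its clone level was thus between the other groups, at least 10.5-fold above Huh7-S (adjusted p = 6.6e-05) and below the pool by a log2 difference of -3.57 (adjusted p = 0.0015). For named genes the clone was also tested against Huh7-R, where 8.63% of all genes passed in either direction.

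Other large rises rested partly on where Huh7-S array 1 lay. CDH17, a cadherin of intestinal epithelium, had 4.8 on Huh7-S array 1 and 9.22 and 9.07 on arrays 2 and 3, against 11.6, 12.43 and 12.61 in the clone. The log2 difference was 4.52 (SE 1.11, adjusted p = 0.013) and 3.07 without array 1 (adjusted p = 0.0021). LOX, the enzyme that cross-links collagen and elastin, had 8.64, 7.35 and 7.1 in the parental cells and 11.46, 12.23 and 12.54 in the clone. Array 1 was here the highest parental array, and the change of 4.38 (SE 0.48) was 4.85 without it. MYOF, a membrane repair protein of the ferlin family, rose from 7.65, 8.68 and 8.66 to 13.38, 12.82 and 12.7. The groups of all 3 genes were separate by the rule that chose them, so their separation says nothing about the weight of that array.

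Among the 20 largest rises, 3 genes are annotated to pseudogenes, and array probes may not separate such near-identical copies from their parent genes. The thymosin copies TMSB4XP8 and TMSB4XP4 rose by 5.37 (SE 0.87, adjusted p = 0.0017) and, for the other, 5.16 (SE 0.76, adjusted p = 0.0011), or by 4.18 and 4.21 without Huh7-S array 1. TMSB4X itself, which encodes an actin-sequestering peptide, had 10.07, 13.08 and 12.65 in the parental cells and 15.71 on all 3 clone arrays. Its difference was 3.78 (SE 0.68, adjusted p = 0.0029), or 2.85 without Huh7-S array 1. The copies and the parent gene moved the same way, and from these probe sets they cannot be told apart. The same holds, among the falls, for PDZK1P1 and its parent PDZK1, a scaffold protein of hepatocyte membranes, with -3.88 (SE 0.32) and -3.54 (SE 0.31). RCN1P2, a copy of the calcium-binding reticulocalbin gene, rose by 4.82 (SE 0.22, adjusted p = 4.6e-06). Its signal may likewise not be separate from that of its parent gene, whose values are not given here.

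**Figure D1:**
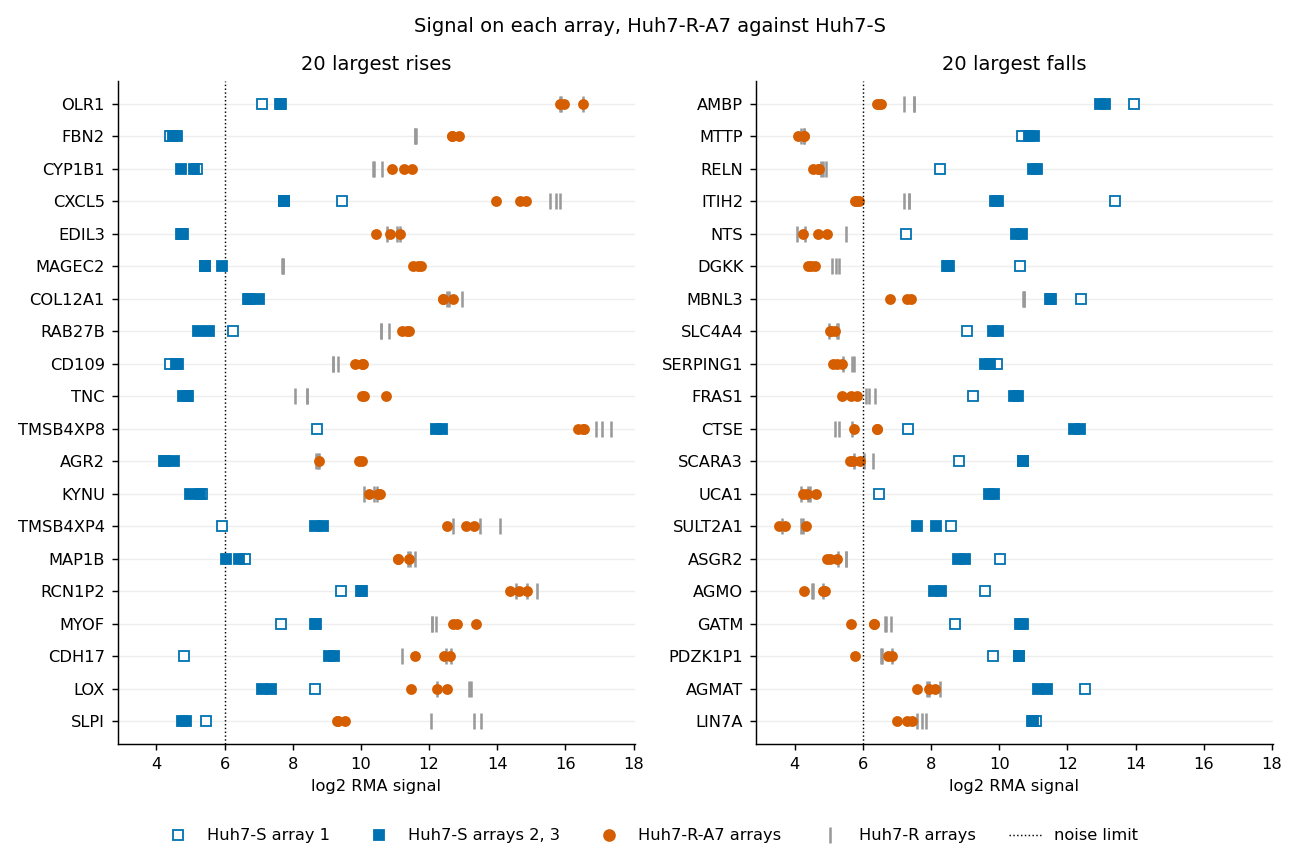
The x axes give the log2 signal of each array and the rows are the 20 genes with the largest rises (left) and falls (right) among called genes whose groups did not overlap. Open squares are Huh7-S array 1, filled squares Huh7-S arrays 2 and 3, circles the clone, bars the pool, and the dotted line the noise limit of 6. By this choice the circles of each row lie on one side of all squares. The open square stands apart for genes such as CDH17, CTSE and ITIH2.

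The largest falls began with AMBP and MTTP. AMBP, the precursor of the plasma protein alpha-1-microglobulin, had 13.94, 13.1 and 12.96 in the parental cells and 6.41, 6.48 and 6.54 in the clone. MTTP, which loads lipid onto apolipoprotein B, fell from 10.66, 11.02 and 10.88 to 4.08, 4.28 and 4.27, below the noise limit on every clone array. ASGR2, a subunit of the receptor by which hepatocytes take up desialylated glycoproteins, fell from 10.03, 9.0 and 8.8 to 5.02, 4.94 and 5.24. The log2 difference of ASGR2 was -4.21 (SE 0.29, adjusted p = 2.6e-05), a fall of at least 9.69-fold. SULT2A1, a sulfotransferase for bile acids and steroids, was at 8.59, 8.14 and 7.58 in the parental cells and at 3.55, 4.33 and 3.7 in the clone. In each of these genes every clone array was lower than every parental array by more than 3 log2 units.

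Several enzymes were among the 20 largest falls. GATM, which makes the creatine precursor guanidinoacetate from arginine, had 8.71, 10.69 and 10.6 in the parental cells and 5.64, 6.33 and 6.33 in the clone, a difference of -3.9 (SE 0.49, adjusted p = 0.00051), or -4.54 without Huh7-S array 1. AGMAT, named for the hydrolysis of agmatine, had 12.51, 11.4 and 11.14 against 7.59, 8.11 and 7.93, a difference of -3.8 (SE 0.33, adjusted p = 8e-05). AGMO, which cleaves alkylglycerols, had 9.57, 8.3 and 8.09 against 4.26, 4.89 and 4.82, a fall of at least 6.28-fold (adjusted p = 0.00011). For GATM Huh7-S array 1 was the lowest of the parental arrays and for AGMAT and AGMO the highest. LIN7A, a scaffold protein of cell polarity, showed the tightest values of these falls, with 11.08, 10.98 and 10.97 against 7.01, 7.43 and 7.3. LIN7A differed by -3.76 (SE 0.11, adjusted p = 5.9e-07) and was the one among these that also lay below the pool (-0.47, adjusted p = 0.043).

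Among the remaining large falls, FRAS1, a matrix protein of basement membranes, had 9.24, 10.54 and 10.43 against 5.38, 5.66 and 5.81 (at least 16.8-fold lower, adjusted p = 3.2e-05). SCARA3, a class A scavenger receptor, had 8.83, 10.71 and 10.7 against 5.91, 5.62 and 5.72 (at least 16.9-fold lower, adjusted p = 0.00023, and at least 26-fold without Huh7-S array 1). MBNL3, a muscleblind RNA-binding protein, had 12.39, 11.53 and 11.49 against 6.8, 7.29 and 7.41, while the pool had 10.72, 10.72 and 10.71. The clone was thus lower than the pool as well (-3.55, adjusted p = 0.00028), and the pool lay nearer to the parental cells. Of the 5 genes with the smallest adjusted p, FBN2, CD109 and TM4SF19 rose in the clone beyond their level in the pool, by 1.14, 0.75 and 1.04 (adjusted p = 0.00028, 0.0025 and 0.00019). CAPN2, a subunit of calpain proteases, rose by 3.89 (SE 0.08, adjusted p = 1.4e-07), with 7.62, 7.76 and 7.52 against 11.54, 11.58 and 11.47. For CAPN2 the clone differed from the pool by 0.05 (adjusted p = 0.8).

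Some genes crossed from noise to clear signal. The table had been filtered, and a gene at noise in the parental cells is in it only because it was brighter on other arrays, so the number of such genes says little. Below log2 6 on all 3 parental arrays and above log2 8 on all 3 clone arrays were 22 genes, of which 17 were above 8 on all pool arrays too and 1 was below 6 there. In the other direction 14 genes crossed, of which 10 were below 6 on all pool arrays. The rises held the xenobiotic-metabolising genes CYP1B1 and CYP2S1, the aldehyde oxidase AOX1 and the cytidine deaminase CDA, which inactivates cytidine analogues. AOX1 had 5.78, 5.31 and 5.34 in the parental cells, 8.15, 8.39 and 8.36 in the clone and 7.18, 7.19 and 7.18 in the pool, so the clone was above both (at least 4.92-fold over Huh7-S, adjusted p = 4.1e-06, and 1.12 over Huh7-R, adjusted p = 0.0022). AOX1, CDA and CYP2S1 were singled out after their values were seen.

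Other crossings included the following genes. EDIL3, an integrin ligand, had 4.72, 4.77 and 4.76 against 10.45, 10.84 and 11.16. CD44, the receptor for hyaluronan, had 6.0, 4.94 and 4.7 against 9.07, 8.43 and 8.31. ULBP3, a ligand of the activating receptor of natural killer cells, had 4.9, 4.91 and 4.86 in the parental cells, 8.55, 8.08 and 8.06 in the clone and 5.98 on all 3 pool arrays. It was the gene below 6 in the pool, though only just. The pool was above Huh7-S for ULBP3 by 1.09 (adjusted p = 0.00026). Among the falls, RELN, a secreted glycoprotein known from brain layering, had 8.26, 11.1 and 11 against 4.54, 4.7 and 4.67, at least 17.4-fold lower with and 33.1-fold without Huh7-S array 1. GABRA2, a subunit of the GABA receptor channel, had 8.12, 9.21 and 9.07 in the parental cells, 5.44, 5.76 and 5.91 in the clone and 6.88, 7.05 and 7.03 in the pool. The clone was below the pool for GABRA2 (adjusted p = 0.028). CD44, ULBP3 and GABRA2 were likewise chosen for mention after the values were seen.

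Promoter sequences of the changed genes were then searched for letters that known transcription factors bind. RefSeq promoters, from 250 bases before to 50 after the start of a gene in GRCh38.p14, were at hand for 7499 of the 9784 genes, among them 390 with rises and 442 with falls of at least 2-fold. The motif of AP-1, TGANTCA, which reads alike on both strands, was in 8.21% of the promoters of risen genes, 4.07% for fallen genes, 4.16% for all genes tested and 7.76% of all 27305 promoters of the table. The interferon-stimulated response element (ISRE), GAAA on both sides of any 2 bases, was on either strand in 5.38%, 2.26%, 2.68% and 3.65% in the same order. The E2F motif TTTNGCGC, on either strand, was in 2.05% of risen and 6.79% of fallen genes, against 3.32% of all genes tested and 1.83% of all promoters. E2F factors drive genes of DNA replication, and AP-1 dimers of FOS and JUN proteins drive genes of growth and matrix turnover. Among changes of at least 8-fold, with 53 promoters of risen and 33 of fallen genes, AP-1 was in 13.2% and 12.1%. ISRE was in 7.55% and 0% of these, and E2F in 1.89% and 3.03%. The differences of AP-1 and E2F between risen and fallen genes were thus not seen alike among the largest changes. These shares are descriptions with no test, and a match is not evidence that a factor binds. The sequences below show the match nearest to the start, in capitals, for the most changed genes that have one in the 250 bases before it.

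GBP3 AP-1: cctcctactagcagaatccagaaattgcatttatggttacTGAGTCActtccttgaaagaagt
CD68 AP-1: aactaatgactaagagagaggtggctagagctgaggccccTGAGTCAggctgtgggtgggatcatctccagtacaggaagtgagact
CAPN2 AP-1: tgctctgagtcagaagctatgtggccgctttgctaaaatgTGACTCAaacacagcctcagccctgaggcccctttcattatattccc
LGALS3BP ISRE: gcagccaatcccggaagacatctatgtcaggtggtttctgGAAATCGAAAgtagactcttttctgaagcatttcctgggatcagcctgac
GBP1 ISRE: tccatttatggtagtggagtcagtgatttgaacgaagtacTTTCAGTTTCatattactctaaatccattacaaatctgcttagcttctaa
EMP3 ISRE: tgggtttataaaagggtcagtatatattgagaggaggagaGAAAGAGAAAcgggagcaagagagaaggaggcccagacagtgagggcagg
MCM6 E2F: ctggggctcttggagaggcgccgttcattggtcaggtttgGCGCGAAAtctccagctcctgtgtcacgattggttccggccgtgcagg
AGXT2 E2F: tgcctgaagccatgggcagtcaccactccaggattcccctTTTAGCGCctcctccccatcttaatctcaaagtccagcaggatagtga
KIF15 E2F: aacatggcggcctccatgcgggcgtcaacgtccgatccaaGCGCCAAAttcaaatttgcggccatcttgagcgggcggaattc

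The first 3 sequences belong to the 3 most risen genes with an AP-1 match. GBP3, a guanylate-binding protein of the interferon response (chr1:89022867-89022929, minus strand, match beginning 23 bases before the start), had 5.63, 5.17 and 5.21 in the parental cells and 9.73, 9.65 and 9.58 in the clone. CD68, a lysosomal scavenger receptor (chr17:7579498-7579584, plus strand, 100 bases before), rose by 4.17 (SE 0.69, adjusted p = 0.002), or by 5.1 without Huh7-S array 1, the highest parental array at 11.09 against 8.47 and 8.11. CAPN2 (chr1:223701414-223701500, plus strand) holds 2 matches, the nearer of them 143 bases before. LGALS3BP, a secreted glycoprotein, had 6.18, 5.91 and 6.25 against 9.16, 10.11 and 9.93 and lies at chr17:78979932-78980021 on the minus strand, with the interferon element 58 bases before the start. GBP1 (chr1:89065286-89065375, minus strand, 127 bases before) carries the element in reverse, and EMP3, a membrane protein (chr19:48325322-48325411, plus strand, 190 bases before), as spelled. Clone and parental values did not overlap for any of these genes.

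Of the 3 most fallen genes with an E2F match, MCM6 and KIF15 act in replication and mitosis and AGXT2 is a mitochondrial aminotransferase. MCM6, a subunit of the replicative helicase, had 12.49, 13.05 and 12.9 in the parental cells and 9.81, 9.71 and 9.65 in the clone, and holds 4 matches, of which the one shown begins 86 bases before the start (chr2:135876482-135876569, minus strand). KIF15, a kinesin of the mitotic spindle (chr3:44761711-44761793, plus strand, 43 bases before), had 9.47, 9.29 and 9.21 against 7.64, 7.09 and 7.09. AGXT2 (chr5:35047952-35048039, minus strand, 50 bases before) was near noise in the parental cells, with 6.14, 6.54 and 6.08, and below it in the clone. Another 11 motifs were searched on both strands. They were the cyclic AMP response element bound by the CREB factors, TGACGTCA, and the site of the inflammatory factor NF-kB, taken as GGGNNTTCC. The cell cycle genes homology region was taken as TTTGAA, and the box of the general promoter factor NF-Y as CCAAT. The site of the TEAD partners of the growth regulator YAP was taken as CATTCC, and that of the hepatocyte factor HNF4 as CAAAGTCCA. The liver pioneer factors of the FOXA family were searched by TGTTTNC, hypoxia-inducible factors by ACGTG, and the liver-enriched factors of the C/EBP family by TTGCGCAA. The E-box of basic helix-loop-helix factors, CACGTG, also contains the hypoxia motif, and the GC box of SP and KLF factors was taken as GGGCGG. The GC box was less frequent among risen (63.3%) and fallen genes (66.5%) than among all genes tested (70.8%), while 44.6% of all promoters of the table hold it. The FOXA motif was more frequent in both (16.9% and 15.8% against 12.4%), though it is in 18.1% of all promoters. Among changes of at least 8-fold the FOXA motif was in 9.43% of risen and 15.2% of fallen genes.

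Groups of genes were described by how many measured members passed the test, beside the 18% of all genes that rose and the 24.6% that fell, and no list was tested as a set. Where the counts of a list lay near these shares, they do not set the list apart from all genes. Components of cytokine signalling through JAK kinases and STAT factors rose more often than they fell. Of 20 measured members 7 rose and 1 fell, with a median of 0.05. OSMR, the receptor subunit for oncostatin M, had 13.02, 11.38 and 11.35 in the parental cells and 13.71 on all 3 clone arrays. SOCS2, a feedback inhibitor of cytokine receptors, rose by 1.77 (SE 0.15, adjusted p = 6.8e-05), at least 2.18-fold. STAT3, the main transducer of interleukin 6 signals in hepatocytes, had 10.99, 10.9 and 10.71 against 12.06, 12.29 and 12.14. The rise of STAT3 was 1.3 (SE 0.1, adjusted p = 5.2e-05), and the groups did not overlap.

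The insulin-like growth factor axis rose in 5 of 12 measured members and fell in 3. The binding protein gene IGFBP4 had 6.56, 6.66 and 6.81 against 8.96, 9.31 and 9.14 (2.46, SE 0.18, adjusted p = 3.5e-05). The receptor IGF1R had 9.92, 10.58 and 10.35 against 12.79, 12.34 and 12.16 (2.15, SE 0.2, adjusted p = 0.00012), and IGFBP3 rose by 1.84 (SE 0.1). None of these 3 passed the test against the pool. Of 27 measured genes of the PI3K, AKT and mTOR pathway 2 rose and 7 fell with a median of -0.09, and SESN3, a sestrin that restrains mTOR, rose most (2.83, SE 0.45, adjusted p = 0.0015). TSC1, of the tuberous sclerosis complex that also restrains mTOR, differed by -0.67 (SE 0.07, adjusted p = 0.00027). BMP and ID genes fell in 8 of 19 and rose in 4. FST, an extracellular inhibitor of activins, had 9.58, 7.46 and 7.14 against 4.9, 4.99 and 5.1, a fall of at least 4.17-fold (adjusted p = 0.003), or at least 2.47-fold without Huh7-S array 1.

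Guidance cues and secreted factors changed in both directions, as did all genes, of which 18% rose and 24.6% fell. With so few members, the counts of this paragraph do not set these lists apart from all genes. Semaphorins, ephrins and their receptors rose in 7 of 25 and fell in 7. SEMA3C, a secreted semaphorin, had 5.74, 5.23 and 5.27 against 8.68, 8.8 and 8.88, at least 6.9-fold higher (adjusted p = 2e-06). NTN4, a netrin of basement membranes, rose by 2.94 (SE 0.53, adjusted p = 0.003), or by 2.32 without Huh7-S array 1. EPHA5, a receptor kinase for ephrins, rose by 2.28 (SE 0.11, adjusted p = 5.3e-06). Of 21 measured growth factor genes 5 rose and 6 fell. PDGFD, a ligand of the platelet-derived growth factor receptors, had 4.76, 4.45 and 4.68 against 7.21, 7.42 and 7.29, and TGFB1 had 10.27, 8.26 and 7.94 against 11.04, 11.47 and 11.16. For TGFB1 the difference of 2.4 (SE 0.55, adjusted p = 0.009) was 3.12 without Huh7-S array 1, the highest of the parental arrays. In the Notch pathway 3 of 13 rose and 3 fell, with the coactivator MAML2 first (2.0, SE 0.13, adjusted p = 2.3e-05).

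Genes of antigen presentation on HLA class I rose in 9 of 11 measured members and fell in 0, with a median of 0.51 (0 also fell without Huh7-S array 1, where 10 rose). B2M, the light chain of all class I molecules, had 13.22, 13.57 and 13.39 in the parental cells and 14.42, 14.67 and 14.69 in the clone. The difference was 1.2 (SE 0.12, adjusted p = 0.00013), and the clone did not pass against the pool (0.03, adjusted p = 0.92). PSME1 and PSME2, the subunits of the interferon-inducible proteasome activator, rose by 1.04 (SE 0.17) and 0.72 (SE 0.15), with adjusted p = 0.0017 and 0.0066. In contrast, of the 39 measured proteasome subunits 14 fell and 3 rose. PSMD1, of the regulatory particle, had 14.33, 14.13 and 14.05 against 13.0, 13.05 and 13.02 (-1.15, SE 0.09, adjusted p = 5.2e-05), and PSMB7, of the core, differed by -1.09 (SE 0.07, adjusted p = 2.3e-05).

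Liver metabolism showed more falls than rises in the catabolism of amino acids. Of 23 measured members 9 fell and 1 rose, the rise being KYNU, with a median of -0.28. Without Huh7-S array 1, 7 fell and 3 rose. GLDC, the decarboxylase of the glycine cleavage system, had 10.28, 10.52 and 10.34 against 7.86, 8.0 and 7.94, which were also below the pool with 8.57, 8.63 and 8.63. Its differences were -2.45 against Huh7-S (SE 0.07, adjusted p = 5.1e-07) and -0.68 against Huh7-R (adjusted p = 0.0015). GLUD1, which releases ammonia from glutamate in mitochondria, fell by 1.63 on the log2 scale (SE 0.28, adjusted p = 0.0025). In gluconeogenesis and glycogen metabolism 6 of 19 rose and 4 fell. PC, pyruvate carboxylase, had 8.9, 8.66 and 8.31 against 6.98, 7.11 and 7.08, and the phosphorylase kinase subunit PHKA2 differed by -1.57 (SE 0.09, adjusted p = 1.1e-05). GBE1, the glycogen branching enzyme, rose by 1.4 (SE 0.16, adjusted p = 0.00036).

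Nucleotide synthesis fell in 16 of 33 measured members and rose in 2, with a median of -0.35 (14 and 3 without Huh7-S array 1, median -0.25). PPAT, which commits phosphoribosyl pyrophosphate to purine synthesis, had 10.98, 10.96 and 10.83 against 9.25, 8.94 and 8.88 (-1.9, SE 0.14, adjusted p = 3.6e-05). ADA, adenosine deaminase, which acts in purine breakdown and salvage, rose from below noise, with 5.55, 5.59 and 5.51, to 7.83, 7.69 and 7.49, at least 3.18-fold. For NT5E, the ectoenzyme that makes adenosine from AMP, the parental values of 7.04, 8.64 and 8.62 and the clone values of 6.0, 6.65 and 6.65 differed by -1.67 (SE 0.44, adjusted p = 0.016).

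In lipid metabolism, genes of sphingolipids rose in 11 of 23 measured members and fell in 6, with a median of 0.07. UGT8, a galactosyltransferase for ceramide, had 5.93, 6.59 and 6.68 in the parental cells, 8.92, 9.08 and 9.15 in the clone and 8.12, 8.3 and 8.13 in the pool. The clone was higher than both, by 2.65 (SE 0.18, adjusted p = 2.8e-05) and by 0.87 (adjusted p = 0.028). SGMS2, a sphingomyelin synthase, rose at least 3.28-fold (adjusted p = 2.3e-05). Eicosanoid genes rose in 5 of 17 and fell in 8. HPGD, which inactivates prostaglandins, had 7.7, 5.14 and 5.39 against 8.82, 9.43 and 9.54 (3.19, SE 0.61, adjusted p = 0.0039, and 4.0 without Huh7-S array 1). PLA2G12B, a secreted phospholipase-like protein of the liver, fell by at least 5.14-fold (adjusted p = 4e-05), from 8.73, 8.22 and 8.14 to 5.02, 5.32 and 5.36. In peroxisomes 4 of 23 rose and 7 fell, near the shares over all genes. The largest change there was in PEX3, a factor of peroxisome biogenesis (1.0, SE 0.12).

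Among carbonyl-reducing enzymes, 3 of 7 measured aldo-keto reductases rose and 1 fell, with a median of 1.2, or 4 and 2 with a median of 1.59 without Huh7-S array 1. AKR1C2, which reduces steroids and other ketones, had 13.64, 10.83 and 10.55 in the parental cells and 13.9, 14.78 and 14.71 in the clone. The difference was 2.79 (SE 0.74, adjusted p = 0.018) and 3.77 without array 1 (adjusted p = 5.5e-05), which lay near the clone. AKR1C3 rose by 2.24 (SE 0.3, adjusted p = 0.00072), while AKR1B10, an aldose reductase of liver tumours, had 10.3, 11.42 and 11.25 against 9.15, 9.92 and 10.01. Members of this family are close in sequence, so their probe sets may share signal. ALDH1A1, a retinaldehyde dehydrogenase and a marker of progenitor cells, had 16.12, 16.31 and 16.3 against 14.03, 14.53 and 14.75. The clone was below the pool too for ALDH1A1 (-1.48, adjusted p = 0.0022).

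Lysosomal genes rose in 13 of 34 measured members and fell in 7, and autophagy genes in 11 of 32 and 4, with medians of 0.22 and 0.08. IDS, a sulfatase that degrades heparan and dermatan sulfate, had 7.51, 7.08 and 6.86 in the parental cells and 11.64, 10.98 and 10.9 in the clone, a rise of 4.02 (SE 0.22, adjusted p = 9.5e-06). The cysteine protease CTSS rose by 1.99 (SE 0.18, adjusted p = 9.1e-05), and the related CTSV had 7.69, 8.1 and 7.78 against 5.67, 5.69 and 5.63. OPTN, a receptor that brings ubiquitinated cargo to autophagosomes, had 8.36, 8.61 and 8.56 against 9.95, 9.97 and 10.06, and the pool was between them with 9.49 on all 3 arrays. GABARAPL1, of the family of membrane proteins that coat autophagosomes, rose by 1.46 (SE 0.1, adjusted p = 3.2e-05).

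DNA repair by homologous recombination and the Fanconi anaemia proteins fell in 19 of 28 measured members and rose in 0, with a median of -0.53 (17 and 0 with the same median without Huh7-S array 1). RAD54L, a motor protein of strand exchange, had 8.11, 8.2 and 8.04 in the parental cells and 6.88, 6.75 and 6.65 in the clone. RMI1, which works with the BLM helicase to dissolve joined DNA molecules, had 9.79, 9.71 and 9.6 against 8.57, 8.35 and 8.33. In both the groups did not overlap, and neither differed past the threshold from the pool. Mismatch and excision repair fell in 12 of 28 and rose in 4, led by the uracil glycosylase UNG (-1.36, SE 0.22, adjusted p = 0.0016).

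Genes of DNA methylation and of the Polycomb complexes fell in 13 of 29 measured members and rose in 1. TET1, which oxidises methylcytosine, had 8.51, 9.08 and 8.9 against 6.96, 6.68 and 7.05 (-1.93, SE 0.16, adjusted p = 5.4e-05). EZH2, the histone methyltransferase of Polycomb, had 9.91, 10.08 and 9.99 against 8.73, 8.52 and 8.33, and HELLS, a chromatin remodeller needed for DNA methylation, differed by -1.45 (SE 0.13, adjusted p = 8e-05). Histone deacetylases and demethylases rose in 5 of 31 and fell in 6, near the shares over all genes. KDM5B, a demethylase of lysine 4 of histone H3, rose from 8.06, 7.46 and 7.3 to 9.88, 10.08 and 10.17, and was above the pool (1.21, adjusted p = 0.0074). Its relative KDM5A rose by 1.33 (SE 0.11, adjusted p = 6.2e-05), at the level of the pool (-0.03, adjusted p = 0.93).

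Transcription factors of the KLF and EGR families fell in 6 of 10 measured members and rose in 0, with a median of -0.56, and SOX and FOX factors fell in 8 of 19 and rose in 0, with a median of -0.24. KLF5, a factor of epithelial growth, had 9.15, 10.13 and 10.1 against 8.31, 7.78 and 7.8 (-1.83, SE 0.27, adjusted p = 0.001), and KLF3, a repressor, differed by -1.68 (SE 0.1, adjusted p = 1.4e-05). SOX9, of progenitor and bile duct cells, had 10.11, 10.31 and 10.15 against 7.02, 7.41 and 7.3. SOX5 and SOX6, factors of cartilage development, fell too, by a log2 difference of -1.84 (SE 0.15) for the first and at least 2.35-fold for the second. SOX9 and SOX6 were below the pool as well, with adjusted p = 0.02 and 0.0058. Of 10 nuclear receptors 5 fell and 2 rose. NR6A1, an orphan receptor of germ cells and embryos, had 10.85, 10.84 and 10.69 against 7.6, 7.69 and 7.45, 9.28-fold lower (adjusted p = 3e-07). In the AP-1 family 3 of 9 rose and 3 fell, with FOSL2 first (1.61, SE 0.11, adjusted p = 2.5e-05, at least 2.59-fold).

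**Figure D2:**
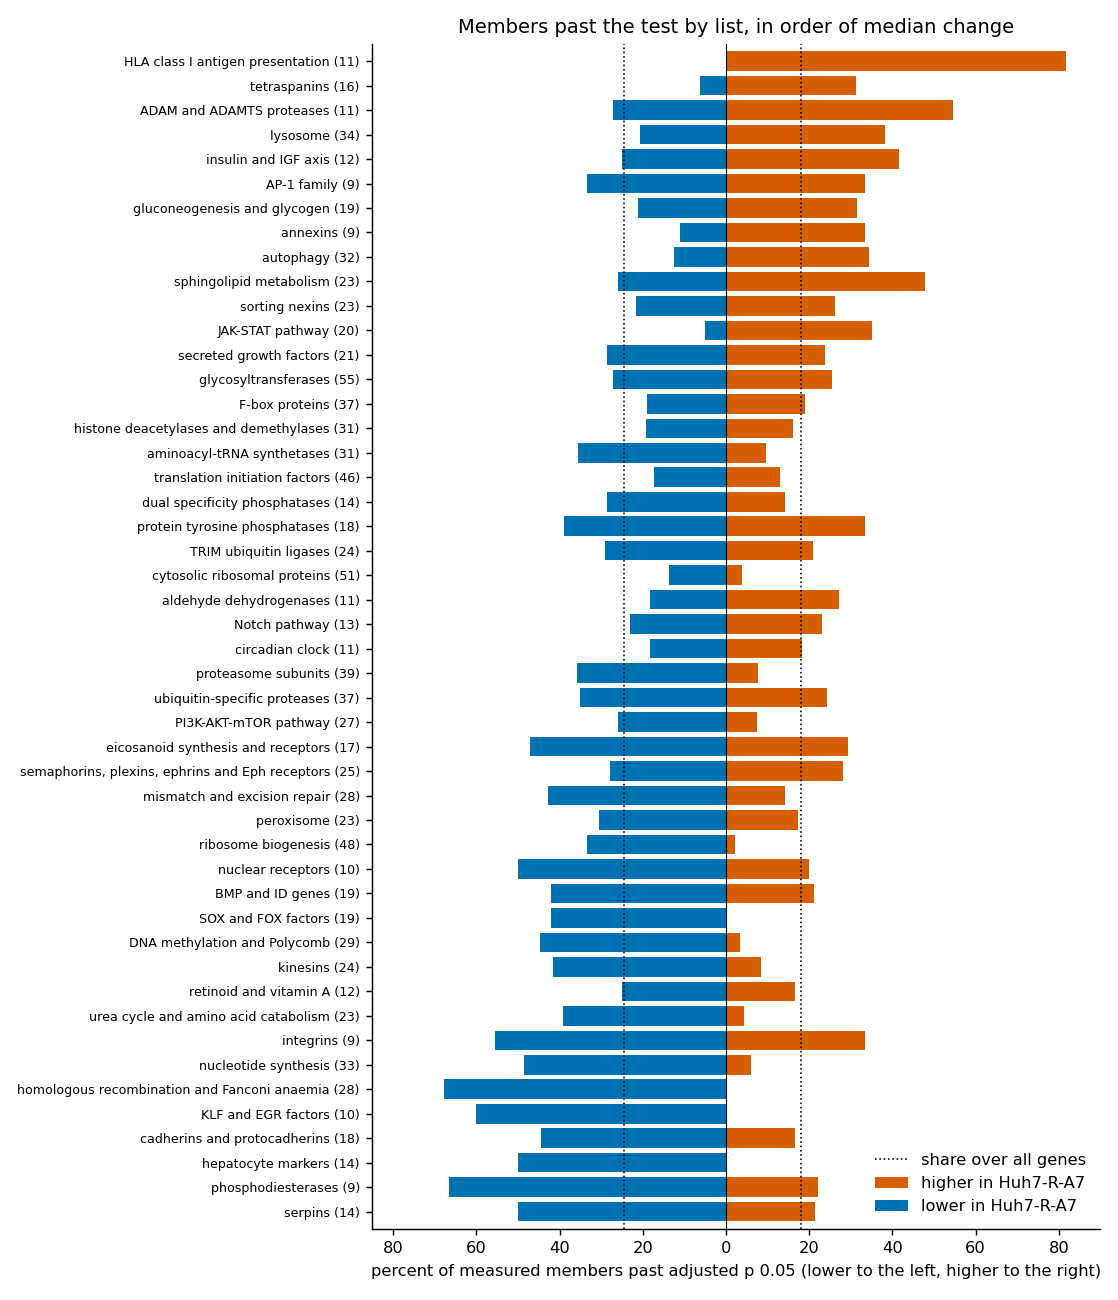
Bars give the percent of measured members (their number in brackets) that passed the test, orange to the right for higher and blue to the left for lower in Huh7-R-A7, for the lists and families shown, each with at least 9 measured members, in order of their median log2 change. Dotted lines mark the shares over all genes, 18% and 24.6%. HLA class I genes reach 9 of 11 to the right, and homologous recombination genes reach 19 of 28 to the left.

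Matrix and adhesion genes changed member by member. Of 5 measured collagens 4 rose and 1 fell. COL12A1, a fibril-associated collagen, had 6.68, 7.02 and 6.72 against 12.71, 12.42 and 12.41, and COL5A2, of fibrillar collagen V, had 9.79, 10.76 and 10.59 against 8.85, 8.64 and 8.95. Beside these, markers of fibroblasts and stellate cells were measured in 2 of 12, and both rose: LUM, lumican, at least 7.4-fold (adjusted p = 3.9e-06) and COL1A2 at least 1.65-fold (adjusted p = 0.0014). Their mean level was 5.28 to 5.48 on the parental arrays, below noise, and 7.73 to 7.9 on the clone arrays. As the table had been filtered, a marker at noise in the parental cells is in it only because other arrays were brighter. That both measured markers rose therefore says little, and the part of other cells in these rises was not tested. None of 10 endothelial markers was measured. CD68, a marker of macrophages, rose by 4.17, or 5.1 without Huh7-S array 1, while the other measured leukocyte marker of 12, LYZ, had a difference of -1.84 (adjusted p = 0.18), or -0.49 without that array. The mean level of both was 7.83 to 11.38 in the parental cells and 9.94 to 10.45 in the clone. Both measured cholangiocyte markers of 8, EPCAM and KRT19, had differences of 1.19 and 0.67 that did not pass. For EPCAM the difference was 0.47 without Huh7-S array 1.

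Integrins fell in 5 of 9 measured members and rose in 3. ITGB5, a partner of the alpha V chain, had 9.01, 9.08 and 8.92 against 7.32, 7.29 and 7.5 (-1.63, SE 0.08, adjusted p = 6.6e-06). ITGA1, a collagen receptor chain, had 11.36, 11.31 and 11.16 in the parental cells, 9.93, 9.7 and 9.81 in the clone and 10.93, 10.95 and 10.92 in the pool, so that the clone was lower than both (adjusted p = 7.8e-06 and 0.00024). ITGA5, a fibronectin receptor chain, rose by 1.36 (SE 0.36, adjusted p = 0.017). Of 18 cadherins and protocadherins 8 fell and 3 rose with a median of -0.67, and after CDH17 the largest changes were falls of PCDH17 (-2.44, SE 0.22) and PCDHGA10 (at least 2.63-fold). The median of this family was -0.04 when genes with a mean below log2 6 were left out. Tetraspanins rose in 5 of 16 and fell in 1, with TSPAN13 at 13.6, 13.58 and 13.68 against 15.11, 15.25 and 15.24. Of 9 annexins, calcium-dependent membrane binders, 3 rose and 1 fell. ANXA4 had 9.61, 9.7 and 9.53 against 11.2, 12.22 and 12.27, and ANXA9 had 8.26, 7.31 and 7.24 against 4.99, 5.22 and 5.31.

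Protease inhibitors of the serpin family fell in 7 of 14 measured members and rose in 3. The median was -1.06, and -0.85 when Huh7-S array 1 was left out. SERPING1, the inhibitor of the first complement component, had 9.92, 9.72 and 9.59 against 5.23, 5.12 and 5.37, at least 13.4-fold lower. SERPINF1, an inhibitor of vessel growth, had 9.34, 7.61 and 7.45 against 4.69, 4.5 and 4.76, at least 4.39-fold lower (adjusted p = 0.00051), or at least 2.9-fold without Huh7-S array 1, and SERPINA6, the cortisol carrier of plasma, fell by at least 3.31-fold (adjusted p = 8.3e-05). All 3 lay below noise on every clone array. Of 11 measured ADAM and ADAMTS proteases 6 rose and 3 fell, among them the sheddase ADAM17 (1.16, SE 0.09, adjusted p = 5.5e-05).

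Phosphodiesterases, which degrade cyclic nucleotides, changed in 8 of 9 measured members, 6 of them downward. PDE5A, specific for cyclic GMP, had 6.79, 7.88 and 7.82 in the parental cells and 11.21, 10.94 and 11.08 in the clone, 12-fold higher (adjusted p = 4.1e-05). PDE3A, which acts on cyclic AMP, had 10.25, 11.86 and 11.76 against 8.15, 8.37 and 8.25, 8.19-fold lower (adjusted p = 0.00054). Kinesins fell in 10 of 24 and rose in 2, with KIF5C, a transport kinesin of neurons, at 4.81, 7.66 and 7.51 against 4.4, 4.43 and 4.19. Its fall of at least 1.58-fold (adjusted p = 0.025) was at least 3.01-fold without Huh7-S array 1, which was below noise like the clone. Potassium channels fell in 4 of 6 and rose in 0, among them KCNJ8 (at least 2.25-fold). Glycosyltransferases were split, with 14 of 55 higher and 15 lower, near the shares over all genes. GALNT7, which starts mucin-type sugar chains, rose by 2.74 (SE 0.2, adjusted p = 3.3e-05), and B3GALT1, a galactosyltransferase, had a difference of -2.24 (SE 0.42, adjusted p = 0.0037).

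Lists of protein synthesis were described as well. Ribosome biogenesis genes fell in 16 of 48 measured members and rose in 1, with none changed by 2-fold and a median of -0.15. Without Huh7-S array 1, 11 fell and 3 rose. Of 46 translation initiation factors 8 fell and 6 rose. Of 51 cytosolic ribosomal proteins 7 fell and 2 rose, both shares below those over all genes. RPL9 had 9.27, 9.14 and 8.91 against 7.91, 7.8 and 7.75 and RPS6 had 7.88, 7.58 and 7.49 against 6.73, 6.64 and 6.64. Aminoacyl-tRNA synthetases fell in 11 of 31 and rose in 3, led by IARS1, for isoleucine, with 13.77, 13.68 and 13.6 in the parental cells, 12.19, 12.31 and 12.32 in the clone and 13.06, 12.92 and 12.96 in the pool. Without Huh7-S array 1, 8 synthetases fell and 6 rose. Ubiquitin-specific proteases fell in 13 of 37 and rose in 9, with USP18, which removes the interferon-induced modifier ISG15, at a difference of -2.08 (SE 0.15, adjusted p = 3.8e-05) and USP12 at 1.91 (SE 0.17, adjusted p = 8.3e-05).

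Changes were also laid out along the chromosomes, since several of the falls just named, such as PSMB7, RPS6, IARS1, RMI1, NR6A1 and GLDC, lie on chromosome 9. Of the 389 genes measured on chromosome 9, 229 fell, 58.9%, and 20 rose, 5.14%, with a median of -0.41. The medians of the single clone arrays against the parental mean were -0.41, -0.39 and -0.43, and the median was -0.41 without Huh7-S array 1. In the pool the median against Huh7-S was -0.28, and 79 chromosome 9 genes were lower in the clone than in the pool while 5 were higher. On the other chromosomes between 13.9% and 38.9% of genes fell, with the highest share on chromosome 22 (74 of 190, median -0.18). Chromosome 6 had the highest share of rises, 31.2%, with 157 higher and 90 lower of 504. These values are descriptions of expression with no test, and DNA was not measured.

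In windows of 50 neighbouring protein-coding genes, 310 in all, the median change ran from -0.83 to 0.71. A window began every 25 genes, so neighbouring windows overlap. The lowest window was on chromosome 9, from HAUS6 to ZCCHC7, with 39 genes lower and 3 higher. Its median was -0.81, -0.76 and -0.76 on the single clone arrays, and -0.40 in the pool. The falls there included UBE2R2, a ubiquitin-conjugating enzyme, with 10.39, 10.52 and 10.31 against 8.49, 8.72 and 8.44, and HAUS6, of the augmin complex of the spindle, with 11.44, 11.41 and 11.35 against 9.83, 9.58 and 9.52. Next came a stretch of chromosome 4 from FAM114A1 to EPHA5, with a median of -0.82, 37 genes lower and 5 higher, and nearly the same median of -0.85 in the pool. PPAT and its neighbour PAICS, consecutive enzymes of purine synthesis, lie there, as do RPL9 and CLOCK (-1.11, SE 0.09, adjusted p = 5e-05), and so does EPHA5, which rose. The genes of these windows were picked after their values were seen, apart from those named with the lists.

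Other stretches set the clone apart from the pool. They were picked after their medians were seen, so the counts of genes in them restate that choice. Over all genes, 8.63% passed against the pool in either direction. On chromosome 9 from SECISBP2 to FSD1L the median was -0.68 in the clone and -0.17 in the pool, and 29 of the 50 genes were lower in the clone than in the pool with 0 higher. On chromosome 2 from NIFK to NR4A2, where MCM6 lies, it was -0.51 and -0.07, with 19 genes lower in the clone than in the pool and 0 higher. On chromosome 10 from PROSER2 to MAP3K8 it was 0.64 and 0.14, with 36 genes above Huh7-S and 32 above the pool. STAM, an adaptor of endosomal sorting, had 11.6, 11.74 and 11.64 in the parental cells, 14.11, 13.8 and 13.86 in the clone and 12.46, 12.31 and 12.39 in the pool. VIM, the intermediate filament vimentin, had 12.77, 13.17 and 13.08, then 14.45, 14.36 and 14.24, and 13.69 on all 3 pool arrays, and OPTN lies in the same window. On chromosome 2 from SLC4A1AP to PREPL, where CYP1B1 lies, the medians were 0.33 and 0.02, with 21 genes above the pool. Elsewhere the pool moved while the clone stayed near Huh7-S. On chromosome 4 from ANXA5 to LRBA the medians were -0.06 in the clone and -0.59 in the pool, with 25 genes above the pool and 0 below. They were 0.01 and -0.21 on chromosome 20 from MAVS to ENTPD6 (19 above, 1 below). On chromosome 11 from IPO7 to SLC5A12 they were 0.04 and 0.19 (2 above, 18 below). By contrast, the window with the highest median, on chromosome 6 from HBS1L to FBXO5, had 37 genes higher and 2 lower at 0.71, and was at 0.55 in the pool with 2 genes above it and 1 below.

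**Figure D3:**
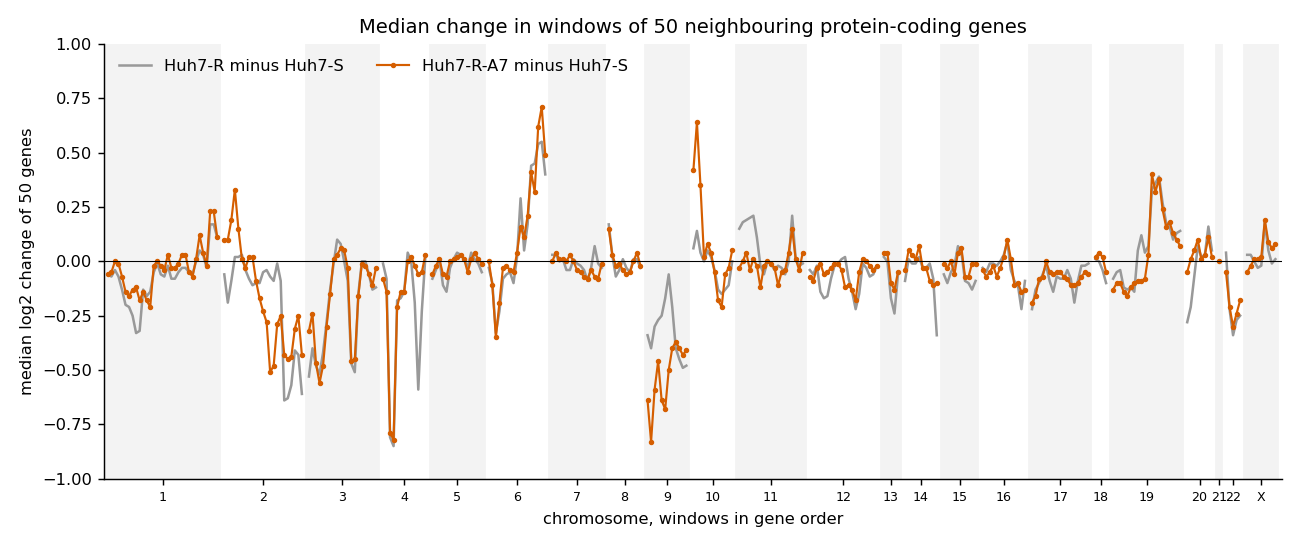
The x axis orders windows of 50 neighbouring protein-coding genes along each chromosome and the y axis gives the median log2 change of a window. Orange points are Huh7-R-A7 minus Huh7-S and the grey line Huh7-R minus Huh7-S. The clone alone lies at 0.64 on chromosome 10, and in a stretch of chromosome 4 clone and pool drop together, to -0.82 and -0.85. In another stretch of chromosome 4 the pool alone drops, to -0.59.

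The comparison was repeated without Huh7-S array 1 because it stood apart from the other parental arrays. The 10 genes that moved most, chosen for that, included 6 metallothionein genes or copies. Metallothioneins bind zinc and copper, and acute phase proteins are released by hepatocytes in inflammation. MT2A had 15.1 on Huh7-S array 1 but 8.63 and 8.21 on arrays 2 and 3, and 13.57, 13.6 and 13.41 in the clone. The clone thus lay above 2 parental arrays and below the other. With all arrays the difference was 2.88 (SE 1.61, adjusted p = 0.19), and without array 1 it was 5.11 (adjusted p = 3.2e-06). MT1F behaved alike, with 13.21, 6.0 and 5.91 in the parental cells and 10.41, 10.73 and 10.74 in the clone, a change of 2.25 with the array (adjusted p = 0.33) and 4.67 without it (adjusted p = 5.9e-06). MT1E, MT1H, MT1M and the pseudogene MT1JP moved the same way, from between 0.91 and 2.5 to between 2.4 and 4.46, and these copies are close in sequence.

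Complement C3 had 12.73, 7.27 and 7.12 in the parental cells, 11.53, 12.73 and 12.81 in the clone and 14.24, 15.27 and 15.19 in the pool. Its change was 3.32 (SE 1.38, adjusted p = 0.089) with and 5.17 (adjusted p = 0.00017) without Huh7-S array 1. ORM2, an acute phase glycoprotein, had 11.21, 5.28 and 5.64 against 8.36, 9.24 and 9.37, and its change of 1.61 became 3.53. A2M, a broad protease inhibitor of plasma, had 13.45, 6.86 and 6.76 against 7.91, 8.84 and 9.01, and its change turned from -0.44 (adjusted p = 0.85) to 1.77 (adjusted p = 0.0066). Among the 10 genes that moved most, the one that fell was CTSE, an aspartic protease of the stomach, with 7.32, 12.2 and 12.37 against 5.75, 6.42 and 6.42. Its change was -4.43 (SE 1.21, adjusted p = 0.019) with and -6.09 (adjusted p = 5.7e-06) without the array. In all, 331 genes rose and 322 fell past the threshold once the array was left out that did not before, while 115 rises and 252 falls were called with it alone.

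**Figure D4:**
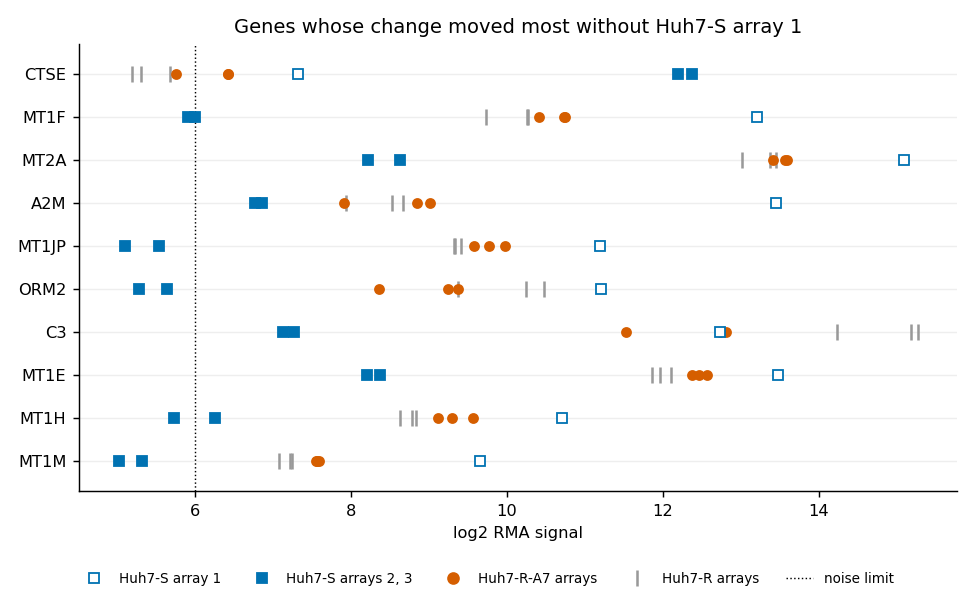
The x axis gives the log2 signal of each array for the 10 genes whose change moved most without Huh7-S array 1, with symbols as in the plot of the largest changes. In 9 of them the open square lies far to the right of the filled squares, with the clone circles between or near them, and in CTSE it lies to the left.

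**Figure D5:**
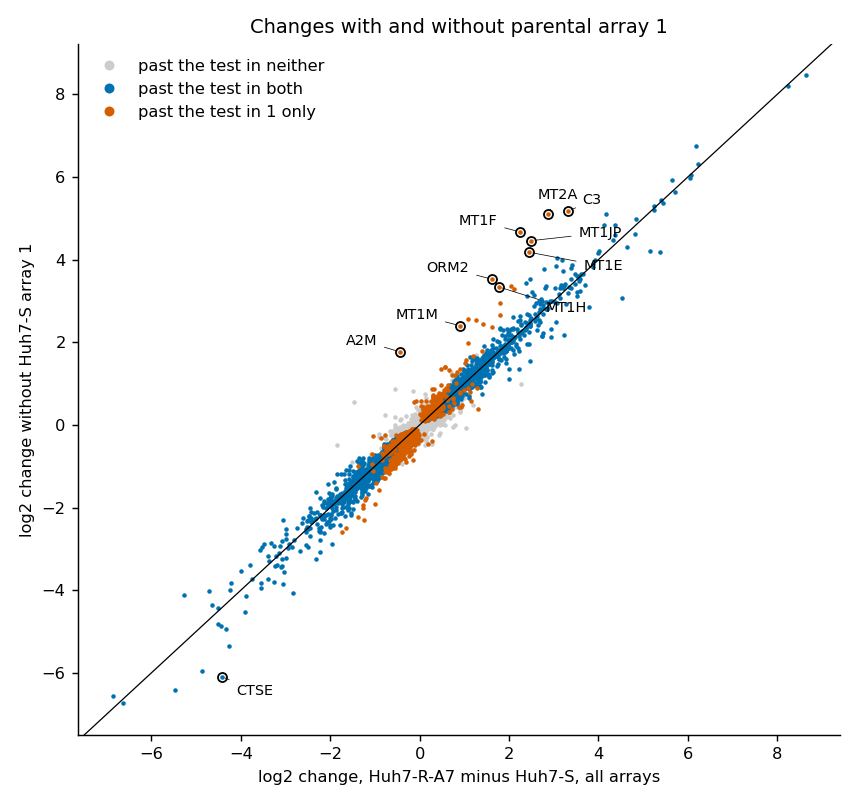
Each point is 1 of the 9784 genes, with its log2 change over all arrays on the x axis and without Huh7-S array 1 on the y axis. The line marks equal changes and circles the 10 genes that moved most, which except for CTSE lie above it. No gene that passed the test in both fits did so with opposite signs.

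Non-coding genes are given beside the 18% of all genes that rose and the 24.6% that fell. Of 196 long non-coding RNAs 20 rose (10.2%) and 34 fell (17.3%), of 118 small nucleolar RNAs 13 (11%) and 7 (5.93%), and of 160 microRNA genes 12 (7.5%) and 8 (5%). Apart from UCA1 the genes named here were chosen after their values were seen. UCA1, a long RNA first described in bladder cancer, had 6.47, 9.83 and 9.69 in the parental cells and 4.62, 4.23 and 4.36 in the clone. The fall was at least 6.33-fold (adjusted p = 0.0035), and at least 13.5-fold without Huh7-S array 1. HULC, a long RNA of liver cancer, had 9.15, 9.41 and 8.47 against 7.14, 7.29 and 6.82 (-1.92, SE 0.24, adjusted p = 0.00048), and LINC00261, a neighbour of the FOXA2 gene, differed by -1.56 (SE 0.13, adjusted p = 6.9e-05). A small nucleolar RNA of high signal that rose was SNORA71A, with 13.49, 13.57 and 13.18 against 14.69, 14.65 and 14.73. For these 4 genes the groups did not overlap, which for UCA1 was a condition of its choice. None of them differed past the threshold from the pool.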

How the data were processed

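RNA of each sample was measured on 1 Affymetrix Human Transcriptome Array. As the labels state, the authors processed the arrays by RMA in Affymetrix Expression Console and deposited signals on the log2 scale in 1 table of all 9 arrays. The version of the program and the build are not given in the sources used here. Of 11013 probe sets, 9851 had 1 gene symbol, 77 symbols were updated through the RefSeq gene table, and probe sets of a gene were averaged, which gave 9784 genes. None was below log2 6 on more than 85% of arrays, the study's limit for leaving a probe set out.

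All 9 arrays were fitted with limma 3.58.1 in R 4.3.3 (lmFit and eBayes with trend, a term for group alone, residual degrees of freedom 6), with two-sided p and Benjamini-Hochberg adjustment over all genes. The script was tested on simulated data. Python 3.11.15, pandas 2.3.3 and matplotlib 3.10.9 made tables and figures. Replicate numbers did not pair clone and parental arrays (correlations of same-numbered deviations -0.21, -0.09 and -0.07), whereas clone and pool arrays of the same number deviated together (0.6, 0.49 and 0.42), so a fit with the number as a block was tried as well.

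The members, the 29 gene lists and the 34 families taken by symbol were chosen with earlier results of these data known. The rule for named genes took 20 rises and 20 falls of largest size without overlap between groups, up to 3 called members of each list, up to 10 genes crossing from below log2 6 to above 8 each way, the 10 genes moved most without Huh7-S array 1 and the 5 smallest adjusted p. Of the list members, some are given. Results of some withheld items are not reported here.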

Additional observations from a re-analysis of the deposited data

Results flagged for a closer look

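Probe sets without a single gene symbol entered no comparison above. Of 624 probe sets with several symbols, 88 were higher and 183 lower in Huh7-R-A7 than in Huh7-S at an adjusted p below 0.05 in limma, and 20 were higher and 52 lower by at least 2-fold. Of 538 probe sets with no symbol in the tables used here, 94 were higher and 129 lower, and 21 were higher and 26 lower by at least 2-fold. They are noted because signal was seen in data that the comparison of genes did not use.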

How the results depend on the processing

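The counts of rises and falls and of 2-fold changes stayed within 1.5 times under 20 other settings, with 1 exception: in a fit of the 3925 genes without equal values among the 9 arrays, 1063 rose and 1479 fell, as fewer genes were tested, although 64.8% of them passed against 42.7% of all genes. Leaving out 1 array at a time gave 1466 to 1979 rises and 1910 to 2481 falls, of which 475 to 549 and 504 to 599 were at least 2-fold. The share of rises among the calls was 42.2% and became 52.8% with median centring, where the median of all genes moved from -0.04 to 0.04. Median centring also moved the median of chromosome 9 to -0.34 and that of chromosome 6 from 0.05 to 0.12. Among 211 named genes A2M reversed from -0.44, to 1.58 with array weights and 1.77 without Huh7-S array 1, with a range of -1.57 to 1.77 leaving out 1 array, and with the replicate number as a block, which does not pair clone and parental arrays, 1 named gene, DTX4, lost its call, 1832 genes rose and 2532 fell. Of the 211 named genes 43 differed between clone and pool, where 8.63% of all genes did. Most named genes were chosen for large changes in the same clone arrays, so this count is not independent of that choice. It was 40 with the block, 85 with array weights and 19 in the fit without equal values. Leaving out 1 array gave 24 to 73, the highest without Huh7-S array 1. Of the genes described, CTSE, AKR1C2 and KIF5C were no longer called in the fit of only 6 arrays, and leaving out 1 clone array or Huh7-S array 2 or 3 ended 5 or 6 calls among the named genes each. Of those described, KIF5C lost its call without any 1 of these 5 arrays, CTSE without clone array 1 or Huh7-S array 2 or 3, NT5E without the same arrays, AKR1C2 without clone array 2 or 3 or Huh7-S array 2 or 3, and ITGA5 without clone array 2 or 3. The median of a list moved by more than the summed spread within the clone and the parental arrays in 37 lists in the fit without equal values, 9 with median centring, 6 each with cyclic loess and quantile normalization and 3 with a mean of at least log2 6. Where a cause is not named, the cause was not tested. With 3 arrays per group, their number limits the precision, and signals near log2 6 are close to background.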
